A study of Mus musculus with 12 samples.

Results

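The p53 pathway was followed here through 10 genes: the transcription factor gene Trp53, its inhibitors Mdm2 and Mdm4, and the targets Ccng1, Phlda3, Trp53inp1, Sesn2, Zmat3, Eda2r and Gadd45a. They were taken by gene symbol from the 24310 features measured in each of 12 RNA-seq libraries, and all 10 were present. The libraries come from CMM cells, a GFP-marked mouse acute myeloid leukaemia with inv(16), grown in the spleens of C57BL/6 mice and enriched for the receptor c-Kit. The mice had received 3 intravenous injections on alternate days of PBS, of CpG-scrODN, or of CpG-STAT3dODN. The CpG part of both oligonucleotides is a ligand of the receptor TLR9, the STAT3dODN part is a decoy bound by the transcription factor STAT3, and the scrODN part is its scrambled control. All 3 groups therefore share the leukaemia, the host strain and the c-Kit selection, and each holds 4 libraries. The design text speaks of sorted GFP-positive cells, which the extraction protocol does not mention.

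The sample labels and the column headers disagreed for every library. The header word was DEC under the label PBS, PBS under the label CpG-scrODN and SCR under the label CpG-STAT3dODN. Groups are named by their labels below, and no difference is ascribed to a treatment. Whether 1 library is 1 mouse is not stated, so p-values measure the spread between these samples alone, and that spread may be technical. Depth was estimated as the read total that best turned low RPKM values into whole reads, 31355000 to 36195000 per library. Only 61.8% to 67.5% of those values were then within 0.05 of a whole read, so the estimate is approximate.

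Kit was detected in every library at 10.5 to 51.1 RPKM (reads scaled to transcript length and to the library's mapped reads), but the libraries also held RNA of other spleen cells. The summed RPKM of 7 B-cell markers was 165 to 667 in the PBS-labelled libraries, 8.96 to 24.0 in the CpG-scrODN-labelled ones and 21.6 to 107 in the CpG-STAT3dODN-labelled ones. Replicate 4 labelled PBS and replicate 4 labelled CpG-STAT3dODN stood apart, with the immediate-early gene Fos at 12.9 and 5.91 RPKM against 486 to 1156 in the other libraries. No listed marker of B cells, T cells or red cells was at 0 in any library. In such bulk samples, fewer cells of a type and less RNA per cell cannot be told apart.

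p53, the product of Trp53, is held low in unstressed cells because the ubiquitin ligase Mdm2 marks it for degradation and the related protein Mdm4 blocks its activation domain. DNA damage and other stresses free it, mainly by stabilising the protein rather than by raising its mRNA, and it then binds paired 10-base elements in its target genes. Mdm2 is itself such a target, which closes a feedback loop, and the other targets lead to cell-cycle arrest, DNA repair, altered metabolism or death.

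Promoter windows of 300 bases, running from 250 bases before a gene's start to 50 after it, were available from RefSeq (GRCm38.p6) for 8 of the 10 members. They were searched for the p53 decamer, which is 3 purines, a C, 2 bases that are each A or T, a G and 3 pyrimidines and reads as the same pattern on both strands. A paired site was 2 decamers with at most 3 bases between them, one exact and at most 2 mismatches in all, with every core C and G kept. An exact decamer occurred in 8.36% of 32851 promoter windows and a paired site in 0.648%. Ccng1, on chromosome 11, was the member with a paired site, and it is shown because its RNA values recur below. Cdkn1a, the cell-cycle inhibitor p21 and a classical p53 target in the wider pathway, also held a paired site, in the upstream of its 2 windows. Gadd45a had a single exact decamer and Mdm4 had no match. Capitals mark decamers and paired sites, and each sequence reads 5′ to 3′ on the gene's own strand.

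Ccng1, chr11:40755237-40755536, minus strand: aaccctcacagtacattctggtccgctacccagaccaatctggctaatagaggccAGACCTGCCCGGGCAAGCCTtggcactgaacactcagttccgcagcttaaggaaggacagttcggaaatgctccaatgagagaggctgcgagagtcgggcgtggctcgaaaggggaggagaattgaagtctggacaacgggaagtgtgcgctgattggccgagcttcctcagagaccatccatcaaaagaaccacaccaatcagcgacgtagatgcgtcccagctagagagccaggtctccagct
Cdkn1a, chr17:29090729-29091028, plus strand: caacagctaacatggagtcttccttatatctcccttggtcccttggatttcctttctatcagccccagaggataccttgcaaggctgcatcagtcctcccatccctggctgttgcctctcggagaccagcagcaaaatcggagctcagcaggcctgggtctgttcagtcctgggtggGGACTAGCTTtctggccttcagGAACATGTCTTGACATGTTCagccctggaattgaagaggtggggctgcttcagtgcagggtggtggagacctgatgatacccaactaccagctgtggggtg
Gadd45a, chr6:67037358-67037657, minus strand: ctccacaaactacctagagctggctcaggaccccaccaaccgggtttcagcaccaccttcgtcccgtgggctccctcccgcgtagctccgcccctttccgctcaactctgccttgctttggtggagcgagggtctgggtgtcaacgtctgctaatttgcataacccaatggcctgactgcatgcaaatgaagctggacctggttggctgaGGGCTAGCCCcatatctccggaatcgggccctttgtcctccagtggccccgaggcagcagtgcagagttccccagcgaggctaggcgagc
Mdm4, chr1:133030538-133030837, minus strand: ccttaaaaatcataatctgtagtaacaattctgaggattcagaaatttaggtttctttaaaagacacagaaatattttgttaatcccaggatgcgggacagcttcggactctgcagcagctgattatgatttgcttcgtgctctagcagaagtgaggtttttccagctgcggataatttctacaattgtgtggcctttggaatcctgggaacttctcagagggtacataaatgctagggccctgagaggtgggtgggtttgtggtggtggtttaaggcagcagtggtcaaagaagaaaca

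The Ccng1 site, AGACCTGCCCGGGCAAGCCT, lay 195 to 176 bases before the start, had no spacer and held 1 mismatch, which was in its first decamer. The Cdkn1a site, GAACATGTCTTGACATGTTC, lay 51 to 32 bases before the start and also held 1 mismatch, in its second decamer. Mdm2 and Trp53 each carried a single exact decamer, GAACTTGCCT and GGACTTGCCC. For Cdkn1a these positions refer to the upstream start, and its other window, chr17:29093519-29093818, held no match. Neither window of Mdm4 held a match, and the windows of Phlda3, Sesn2 and Eda2r held none. A match describes these letters only and shows no binding, and elements outside the window were not searched.

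Levels of the members spread widely. Trp53, on chr11:69580348-69591873, was the highest, with a mean of 101 RPKM over the 12 libraries, rank 534 of the 10886 genes tested. Ccng1 followed at 56.8 RPKM, Mdm4 at 33.4, Phlda3 at 23.7 and Mdm2 at 21.9. Sesn2 at 11.4, Gadd45a at 10.4, Trp53inp1 at 7.34 and Zmat3 at 6.18 RPKM formed the lower tier, and Eda2r was near 0 at 0.0855 RPKM. The order Trp53 over Ccng1 over Mdm4 held in all 12 libraries, as did Mdm2 over Sesn2 and Zmat3 over Eda2r. Mdm4 exceeded Phlda3 in 10 libraries and Sesn2 exceeded Gadd45a in 9. Phlda3 and Mdm2, Gadd45a and Trp53inp1, and Trp53inp1 and Zmat3 were each ordered one way in 6 of 12 libraries, so these neighbours did not separate.

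**Figure D1:**
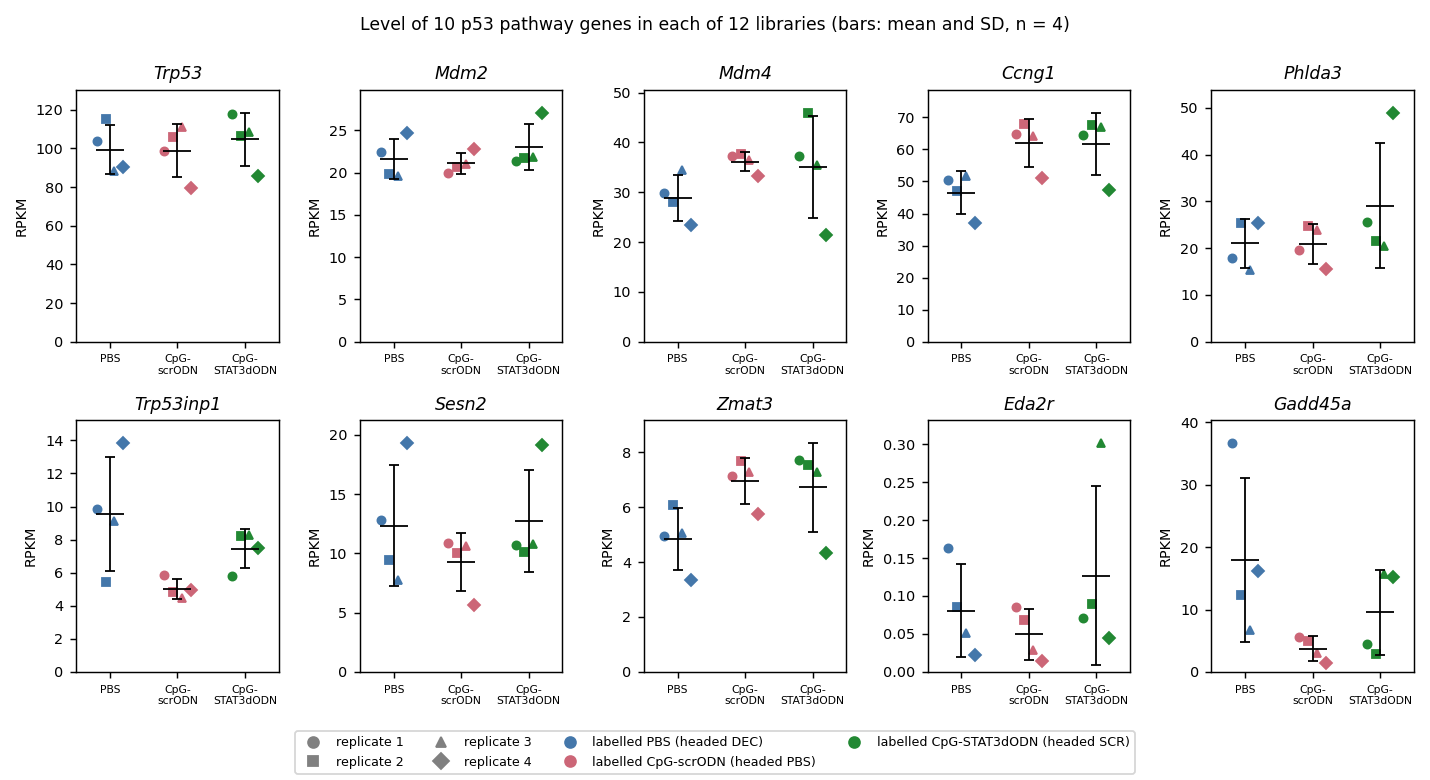
RPKM of the 10 members in each of the 12 libraries, by labelled group, with the group mean and SD (n = 4) and a symbol for each replicate number. Trp53 stays between 79.5 and 118 RPKM in all libraries, while Gadd45a runs from 1.35 to 36.7.

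Trp53 RNA did not separate the 3 groups. It stood at 104, 115, 88.5 and 90.2 RPKM in PBS-labelled replicates 1 to 4, at 98.9, 106, 111 and 79.5 in the CpG-scrODN-labelled ones, and at 118, 106, 109 and 85.8 in the CpG-STAT3dODN-labelled ones. The 3 groups overlap throughout. On the log2(RPKM + 1) scale, used for all differences below, CpG-scrODN minus PBS was -0.01 (SE 0.13, 95% interval -0.30 to 0.27, limma adjusted p = 0.970). CpG-STAT3dODN minus PBS was 0.07 (interval -0.21 to 0.36, limma adjusted p = 1.00), and CpG-STAT3dODN minus CpG-scrODN was 0.08 (interval -0.20 to 0.37). The intervals leave room for shifts of up to about 0.37 and do not show equality. p53 protein was not measured.

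Mdm2, the ubiquitin ligase on chr10:117688875-117710758, was the steadiest of the tested members, with a within-group SD of 0.13 on the log2 scale. Its RPKM was 22.4, 19.9, 19.6 and 24.6 in the PBS-labelled libraries, 19.9, 20.7, 21.0 and 22.8 in the CpG-scrODN-labelled ones, and 21.4, 21.7, 21.9 and 27.0 in the CpG-STAT3dODN-labelled ones. The groups overlap, and replicate 4 is the highest library of each. The CpG-scrODN minus PBS difference was -0.03 (SE 0.10, interval -0.24 to 0.18, limma adjusted p = 0.900), and CpG-STAT3dODN minus PBS was 0.08 (interval -0.13 to 0.30, limma adjusted p = 1.00). CpG-STAT3dODN minus CpG-scrODN was 0.11 (interval -0.10 to 0.33, limma adjusted p = 0.960).

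Mdm4, the second inhibitor, on chr1:132986105-133030587, varied more. It stood at 29.8, 28.0, 34.4 and 23.3 RPKM in the PBS-labelled libraries, at 37.2, 37.6, 36.5 and 33.3 in the CpG-scrODN-labelled ones, and at 37.3, 45.9, 35.6 and 21.3 in the CpG-STAT3dODN-labelled ones. Replicate 4 was the lowest of each group, and replicate 4 labelled CpG-STAT3dODN was the lowest of all 12. For CpG-scrODN minus PBS the difference was 0.33 (SE 0.19, interval -0.09 to 0.74, limma adjusted p = 0.442), and CpG-STAT3dODN minus PBS was 0.23 (interval -0.19 to 0.65, limma adjusted p = 0.936). CpG-STAT3dODN minus CpG-scrODN was -0.09 (interval -0.51 to 0.32).

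Ccng1 and Zmat3 had the clearest shared pattern among the targets. Ccng1, on chr11:40748552-40755309, encodes cyclin G1, which brings a phosphatase to Mdm2. Its RPKM was 50.6, 46.9, 51.7 and 37.0 in the PBS-labelled libraries, 64.8, 68.1, 64.3 and 51.1 in the CpG-scrODN-labelled ones, and 64.6, 67.7, 67.2 and 47.3 in the CpG-STAT3dODN-labelled ones. Replicates 1 to 3 of both oligonucleotide-labelled groups lie above every library labelled PBS, whereas both replicates numbered 4 fall into the PBS range. CpG-scrODN minus PBS was 0.41 (SE 0.14, interval 0.10 to 0.72, unadjusted p = 0.0146, limma adjusted p = 0.171), and CpG-STAT3dODN minus PBS was 0.40 (interval 0.08 to 0.71, unadjusted p = 0.0177, limma adjusted p = 0.315). Neither passed the threshold of an adjusted p under 0.05. CpG-STAT3dODN minus CpG-scrODN was -0.01 (interval -0.33 to 0.30).

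Zmat3, on chr3:32334792-32365665, encodes a zinc finger protein that binds RNA. It stood at 4.96, 6.07, 5.05 and 3.33 RPKM in the PBS-labelled libraries, at 7.15, 7.67, 7.29 and 5.74 in the CpG-scrODN-labelled ones, and at 7.73, 7.54, 7.27 and 4.32 in the CpG-STAT3dODN-labelled ones. The layout is that of Ccng1, with replicates 1 to 3 of both oligonucleotide-labelled groups above all libraries labelled PBS. The CpG-scrODN minus PBS difference was 0.46 (SE 0.18, interval 0.06 to 0.86, unadjusted p = 0.0271, limma adjusted p = 0.241), and CpG-STAT3dODN minus PBS was 0.39 (interval -0.0047 to 0.79, limma adjusted p = 0.543). CpG-STAT3dODN minus CpG-scrODN was -0.07 (interval -0.46 to 0.33).

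With all 3 libraries numbered 4 left out, a choice made after the values were seen, limma called both genes. Ccng1 was then 0.40 higher in CpG-scrODN than in PBS (limma adjusted p = 0.00456) and 0.41 higher in CpG-STAT3dODN than in PBS (limma adjusted p = 0.00574). Zmat3 was 0.40 higher (limma adjusted p = 0.0158) and 0.43 higher (limma adjusted p = 0.0180). With only the 2 libraries of low Fos left out, neither was called. The B-cell markers ran opposite to these genes. Over 12 libraries, Pearson's r between the mean log2 level of the listed markers and the gene's log2 level was -0.77 for Ccng1 and -0.77 for Zmat3. These values describe libraries that fall into groups. Replicate 4 labelled CpG-scrODN had the lowest B-cell sum of all, 8.96 RPKM, with Ccng1 at 51.1 RPKM. With the T-cell markers r was -0.80 for Ccng1 and -0.76 for Zmat3. After the group means were removed, it was -0.51 and -0.68 with the B-cell markers. Immediate-early markers then gave 0.78 and 0.88, and mature neutrophil markers 0.73 and 0.71. With group means kept, immediate-early markers gave 0.53 and 0.67 over 12 libraries and -0.54 and -0.39 without the 2 of low Fos. Mature neutrophil markers gave 0.13 and 0.16, and -0.03 and -0.02 without those 2. Without the 2 libraries of low Fos, macrophage markers gave -0.87 and -0.66, beside -0.67 and -0.72 for B-cell markers. The part of other cells or RNA state in these differences was not tested.

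**Figure D2:**
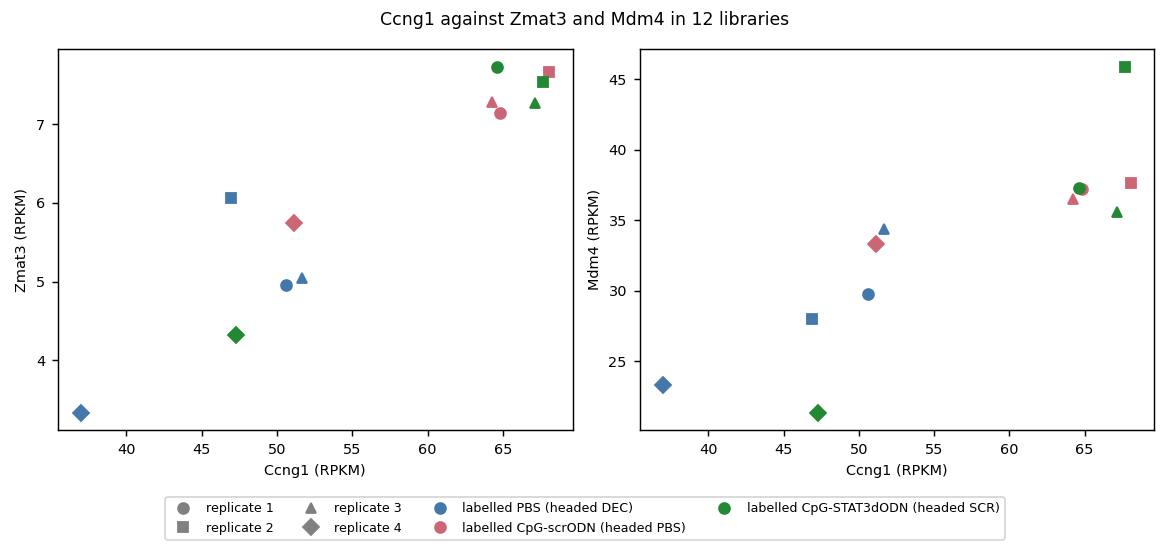
Zmat3 and Mdm4 against Ccng1, in RPKM, 1 point per library, by labelled group with a symbol for each replicate number. Replicates 1 to 3 labelled CpG-scrODN or CpG-STAT3dODN lie at Ccng1 64.3 to 68.1 RPKM, and the other 6 libraries at 37.0 to 51.7.

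The plot of Zmat3 and Mdm4 against Ccng1 splits the libraries into 2 sets of 6 that do not touch. In replicates 1 to 3 of both oligonucleotide-labelled groups, Ccng1 was 64.3 to 68.1 RPKM, Zmat3 7.15 to 7.73 and Mdm4 35.6 to 45.9. In the libraries labelled PBS together with both other replicates numbered 4, Ccng1 was 37.0 to 51.7, Zmat3 3.33 to 6.07 and Mdm4 21.3 to 34.4. The sets were read off the values, so no test was made between them. Inside the sets the relation varied, and in the upper set Ccng1 spanned only 64.3 to 68.1 RPKM. Pearson's r of Zmat3 with Ccng1 was 0.79 in the lower set and 0.33 in the upper (Spearman's rho 0.37 and 0.14, n = 6 each). For Mdm4 with Ccng1 it was 0.67 and 0.43 (Spearman's rho 0.83 and 0.54).

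Trp53inp1 and Gadd45a were the members with the largest differences, both lower in CpG-scrODN than in PBS, and neither passed the adjusted threshold. Trp53inp1, on chr4:11156441-11174379, encodes a stress-induced nuclear protein that promotes p53 activity and autophagy. Its RPKM was 9.86, 5.42, 9.11 and 13.8 in the PBS-labelled libraries, 5.86, 4.80, 4.48 and 4.94 in the CpG-scrODN-labelled ones, and 5.77, 8.21, 8.29 and 7.50 in the CpG-STAT3dODN-labelled ones. Among the PBS-labelled libraries, only replicate 2 reaches down into the CpG-scrODN range, and replicate 1 labelled CpG-STAT3dODN lies in it too. For CpG-scrODN minus PBS the difference was -0.75 (SE 0.21, interval -1.21 to -0.30, unadjusted p = 0.00376, limma adjusted p = 0.0759). Without replicate 2 labelled PBS, the library that overlaps, the difference was -0.97 and was called (limma adjusted p = 0.00512). No other fit that left out 1 library called it. CpG-STAT3dODN minus PBS was -0.27 (interval -0.73 to 0.18), and CpG-STAT3dODN minus CpG-scrODN was 0.48 (interval 0.03 to 0.94, unadjusted p = 0.0402, limma adjusted p = 0.960). Over 12 libraries the log2 level of Trp53inp1 ran with the mean log2 level of the B-cell markers (Pearson's r 0.76, Spearman's rho 0.78). Pearson's r was 0.72 with the T-cell markers, 0.61 with those of leukaemic progenitors and -0.61 with the immediate-early ones. After the group means were removed, r was 0.58 with the B-cell markers and 0.58 with the T-cell ones. It was then 0.06 with the progenitor markers and -0.57 with the immediate-early ones. The part of these cells or RNA state in the difference was not tested.

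Gadd45a, on chr6:67035096-67037407, encodes a growth arrest and DNA repair protein and was the most variable member, its within-group SD of 0.92 exceeding that of 98.9% of tested genes. It stood at 36.7, 12.3, 6.66 and 16.2 RPKM in the PBS-labelled libraries, at 5.60, 5.03, 2.97 and 1.35 in the CpG-scrODN-labelled ones, and at 4.45, 2.85, 15.6 and 15.2 in the CpG-STAT3dODN-labelled ones. Every library labelled CpG-scrODN lies below every library labelled PBS, while those labelled CpG-STAT3dODN divide, with replicates 1 and 2 low and 3 and 4 high. CpG-scrODN minus PBS was -1.87 (SE 0.58, interval -3.13 to -0.61, unadjusted p = 0.00733, limma adjusted p = 0.117). CpG-STAT3dODN minus PBS was -0.89 (interval -2.15 to 0.37, limma adjusted p = 0.822), and CpG-STAT3dODN minus CpG-scrODN was 0.98 (interval -0.28 to 2.24).

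Markers of several other cells moved with Gadd45a. Pearson's r of its log2 level with the mean log2 level of each marker list was taken over 12 libraries. It was 0.74 for the B-cell list (Spearman's rho 0.83), 0.66 for the T-cell list (0.79) and 0.73 for the erythroid list (0.64). After the group means were removed it was 0.53, 0.32 and 0.85. The summed RPKM of 5 erythroid markers was 3331, 940.4, 156 and 342 in PBS-labelled replicates 1 to 4, 538, 535, 362 and 258 in the CpG-scrODN-labelled ones, and 382, 168, 1383 and 873 in the CpG-STAT3dODN-labelled ones. Replicate 1 labelled PBS was thus the highest of all libraries for both the markers and Gadd45a, and replicates 3 and 4 labelled CpG-STAT3dODN were the high ones of their group for both. Replicate 3 labelled PBS, at 156, had the lowest erythroid sum of all, with Gadd45a at 6.66 RPKM. With both libraries of low Fos left out, Pearson's r was 0.75 for the B-cell list, 0.75 for the T-cell list and 0.85 for the erythroid list. The part of these cells in the Gadd45a values was not tested.

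**Figure D3:**
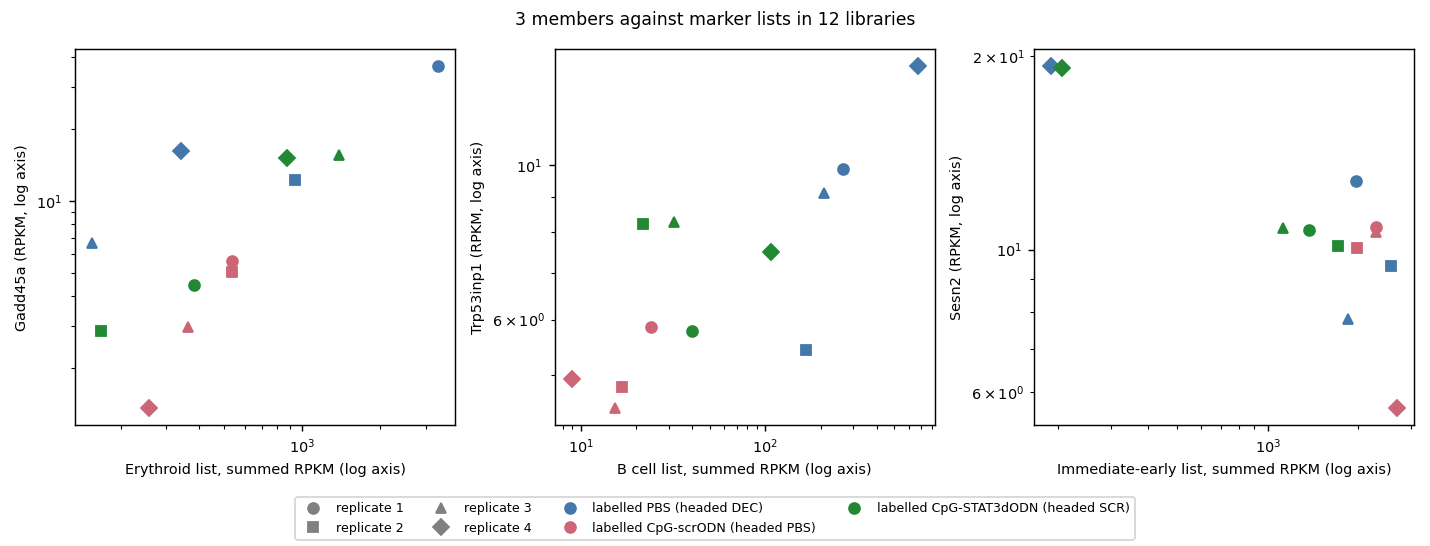
Members against the summed markers of other spleen cells, 1 point per library by labelled group, RPKM on log axes, with a symbol for each replicate number. Gadd45a rises with the erythroid markers, Trp53inp1 with the B-cell markers, and Sesn2 falls with the immediate-early markers. Pearson's r over 12 libraries, taken with each list's mean log2 level and not the plotted sum, is 0.73, 0.76 and -0.84 in turn.

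Sesn2, on chr4:132492804-132510456, encodes a leucine sensor that restrains the growth kinase complex mTORC1. Its RPKM was 12.8, 9.42, 7.79 and 19.3 in the PBS-labelled libraries, 10.8, 10.1, 10.6 and 5.67 in the CpG-scrODN-labelled ones, and 10.7, 10.1, 10.8 and 19.2 in the CpG-STAT3dODN-labelled ones. Outside the libraries numbered 4, all values lie between 7.79 and 12.8. Replicate 4 was the highest labelled PBS and the highest labelled CpG-STAT3dODN, but the lowest of all 12 under the label CpG-scrODN. The 2 high libraries are those of low Fos, whose summed immediate-early markers were 190.5 and 207 RPKM against 1118 to 2689 in the others. They also had the highest B-cell sums of their groups, 667 and 107 RPKM. Replicate 4 labelled CpG-scrODN had the lowest B-cell sum of all, 8.96 RPKM. The log2 level of Sesn2 and the mean log2 level of the immediate-early markers had a Pearson's r of -0.84 over 12 libraries. It was -0.42 without the 2 libraries of low Fos, so the relation rests largely on them. With the B-cell markers, r was 0.46 over 12 libraries and 0.23 without those 2. After the group means were removed, r was 0.89 with the B-cell markers and -0.81 with the immediate-early ones. The part of B cells or RNA state in the Sesn2 values was not tested. The CpG-scrODN minus PBS difference was -0.33 (interval -0.95 to 0.29, limma adjusted p = 0.599), CpG-STAT3dODN minus PBS was 0.07 (interval -0.55 to 0.69), and CpG-STAT3dODN minus CpG-scrODN was 0.40 (interval -0.21 to 1.02).

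Phlda3, on chr1:135766085-135769134, encodes a small lipid-binding protein that keeps the kinase Akt from the membrane. It stood at 17.9, 25.4, 15.3 and 25.4 RPKM in the PBS-labelled libraries, at 19.7, 24.8, 23.9 and 15.5 in the CpG-scrODN-labelled ones, and at 25.6, 21.5, 20.4 and 48.9 in the CpG-STAT3dODN-labelled ones. Only the last library, replicate 4, leaves the common range. For CpG-scrODN minus PBS the difference was 0.01 (interval -0.57 to 0.59, limma adjusted p = 0.994), and CpG-STAT3dODN minus PBS was 0.39 (interval -0.19 to 0.97, limma adjusted p = 0.850). CpG-STAT3dODN minus CpG-scrODN was 0.39 (interval -0.20 to 0.97).

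Eda2r, on chrX:97333837-97377234, encodes a receptor of the TNF receptor family that binds ectodysplasin A2. It was below the filter of at least 1 RPKM in at least 4 libraries and ran from 0.0149 to 0.301 RPKM. At the lowest estimated depth, 1 RPKM stands for about 31.4 reads per kilobase. The groups overlap. Exact two-sided permutation tests of 4 against 4 libraries gave p = 0.486 for CpG-scrODN against PBS, p = 0.600 for CpG-STAT3dODN against PBS and p = 0.171 for CpG-STAT3dODN against CpG-scrODN, where the smallest p such a test can give is 0.0286.

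Replicate 4 was often the extreme library of its group. Under all 3 labels it was the lowest library for Mdm4, Ccng1, Zmat3 and Eda2r and the highest for Mdm2. Of the 10 members, replicate 4 lay outside the range of replicates 1 to 3 for 7 under the label PBS, for 9 under CpG-scrODN and for 8 under CpG-STAT3dODN. These counts include Eda2r, which lay outside under all 3 labels and is not among the tested genes. Over all tested genes the shares outside were 72.4%, 72.5% and 78.1%, so the members' counts are of the same order as those of other genes. Among replicates 1 to 3 alone, a restriction made after the values were seen, 4 of 9 members did not overlap between CpG-scrODN and PBS. Mdm4, Ccng1 and Zmat3 were the higher ones and Gadd45a the lower, against 22.8% of all tested genes. Between CpG-STAT3dODN and PBS, 3 of 9 did not overlap, again Mdm4, Ccng1 and Zmat3, against 16.4%. Mdm2 was the 1 member that did not overlap between CpG-STAT3dODN and CpG-scrODN, higher in the former, against 11.1%.

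Across the members as a whole, 0 of the 9 tested passed limma's adjusted threshold in any of the 3 comparisons. For CpG-scrODN against PBS, 4.15% of 10886 genes were called, 0.11% higher and 4.04% lower. For CpG-STAT3dODN against PBS, 1.86% were called, 0.0276% higher and 1.83% lower, and for CpG-STAT3dODN against CpG-scrODN the share was 0% in either direction. At an unadjusted p under 0.05, limma gave 4 members for CpG-scrODN against PBS (Ccng1 and Zmat3 higher, Trp53inp1 and Gadd45a lower), beside 15.6% of all genes. It gave 1 for CpG-STAT3dODN against PBS (Ccng1), beside 9.4%, and 1 for CpG-STAT3dODN against CpG-scrODN (Trp53inp1), beside 2.71%. With all 4 libraries of each group, only Gadd45a did not overlap between CpG-scrODN and PBS, where 13.9% of genes did not. No member was free of overlap between CpG-STAT3dODN and PBS (5.04% of genes) or between CpG-STAT3dODN and CpG-scrODN (4.25%). The median difference of the 9 members was -0.01 for CpG-scrODN minus PBS, 0.08 for CpG-STAT3dODN minus PBS and 0.11 for CpG-STAT3dODN minus CpG-scrODN, beside -0.05, -0.01 and 0.03 over all genes. The first and second comparisons share the libraries labelled PBS.

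**Figure D4:**
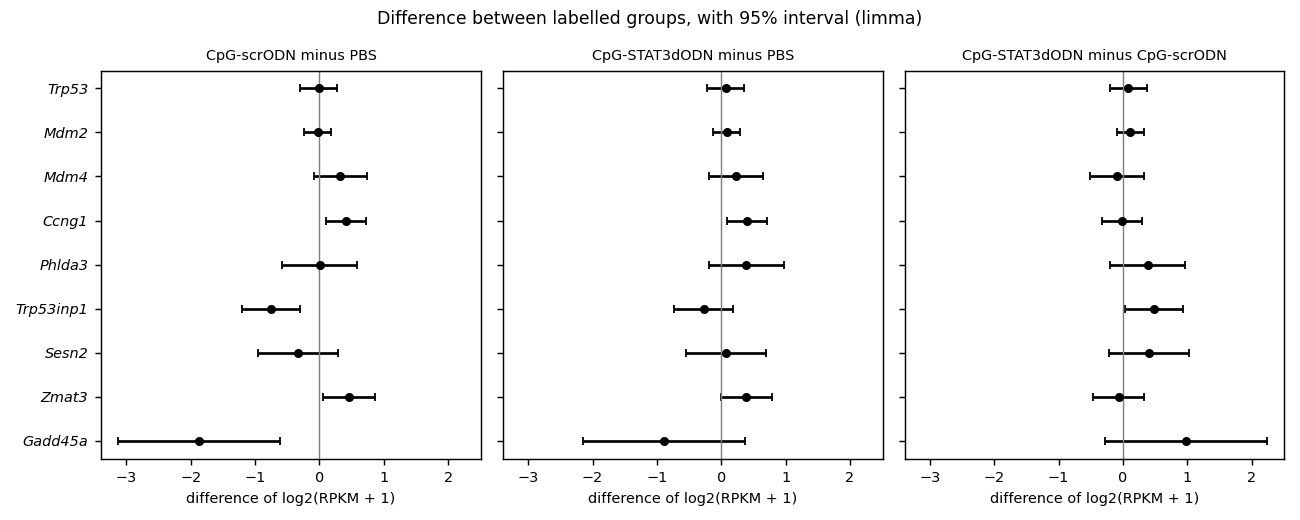
Difference of each tested member in the 3 comparisons of labelled groups, on the log2(RPKM + 1) scale, with 95% intervals from limma. The intervals of Ccng1, Zmat3, Trp53inp1 and Gadd45a for CpG-scrODN minus PBS leave out 0, but no member passed the adjusted threshold.

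The wider pathway was described with 91 further genes in 4 lists, all in the files, of which 85 were tested: targets in arrest and DNA repair, in death, and in growth and metabolism, and regulators of p53. Between CpG-scrODN and PBS, limma called 9 of the 85, 2 higher and 7 lower, or 10.6% beside 4.15% of all genes. Between CpG-STAT3dODN and PBS it called 4, all lower, or 4.71% beside 1.86%. Between CpG-STAT3dODN and CpG-scrODN it called 0, with 4 of 85 at an unadjusted p under 0.05, beside 2.71% of all genes. Median differences of the 85 genes were -0.02, -0.05 and -0.0042. The lists held 2 of 19 called in arrest and repair, 3 of 20 in death, 3 of 18 in growth and metabolism and 1 of 28 regulators in the first comparison. Plk2 and Sesn3, called in both comparisons with PBS, passed the filter on low values only through the libraries labelled PBS.

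Cdkn1a rose and Plk2 fell among the arrest and repair genes. Cdkn1a, which encodes the kinase inhibitor p21 and whose promoter site is printed above, stood at 35.3, 47.2, 36.5 and 35.5 RPKM in the PBS-labelled libraries, at 52.5, 48.4, 50.0 and 53.8 in the CpG-scrODN-labelled ones, and at 45.1, 49.1, 41.8 and 50.1 in the CpG-STAT3dODN-labelled ones. All libraries labelled CpG-scrODN lie above all labelled PBS. The difference between them was 0.41 (SE 0.10, limma adjusted p = 0.0427), and CpG-STAT3dODN minus PBS was 0.27 (interval 0.05 to 0.49, limma adjusted p = 0.334). Plk2, a polo-like kinase, was 2.79 ± 0.452 RPKM in the PBS-labelled libraries, 0.372 ± 0.0919 in the CpG-scrODN-labelled ones and 0.447 ± 0.152 in the CpG-STAT3dODN-labelled ones (SD, n = 4). Its differences from PBS were -1.46 (SE 0.12, limma adjusted p = 4.67e-05) and -1.39 (limma adjusted p = 0.000152).

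Among the death genes, Perp rose while Casp1 and Dram1 fell in CpG-scrODN against PBS. Perp, which encodes a membrane protein of cell junctions and apoptosis, was 1.34 ± 0.980 RPKM under the label PBS and 3.34 ± 0.553 under the label CpG-scrODN (SD, n = 4; difference 0.97, limma adjusted p = 0.0325). Its level labelled CpG-STAT3dODN was 3.14 ± 0.529 RPKM (difference from PBS 0.90, limma adjusted p = 0.0858). Casp1, the inflammasome protease, was 6.72 ± 2.60 RPKM under the label PBS, 1.23 ± 0.306 under the label CpG-scrODN and 2.22 ± 0.883 under the label CpG-STAT3dODN, with differences from PBS of -1.75 and -1.25 (limma adjusted p = 0.00120 and 0.0174). Dram1, a lysosomal membrane protein of autophagy, was 2.42 ± 0.110 RPKM under the label PBS, 1.47 ± 0.168 under CpG-scrODN and 1.67 ± 0.427 under CpG-STAT3dODN. It differed by -0.47 between CpG-scrODN and PBS (limma adjusted p = 0.0409).

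Sesn3, Ephx1 and Trp53i11 fell among the growth and metabolism genes. Sesn3, a relative of Sesn2, was 3.63 ± 2.31 RPKM under the label PBS, 0.308 ± 0.0970 under the label CpG-scrODN and 0.469 ± 0.143 under the label CpG-STAT3dODN (SD, n = 4). Its differences from PBS were -1.71 and -1.54 (limma adjusted p = 0.00221 and 0.00909), whereas those of Sesn2 were not called. Ephx1, a microsomal epoxide hydrolase, was 5.24 ± 3.73, 0.641 ± 0.188 and 0.934 ± 0.352 RPKM under the same labels in turn, and differed from PBS by -1.77 and -1.54 (limma adjusted p = 0.00575 and 0.0235). Trp53i11, at 5.13 ± 1.51, 1.68 ± 0.572 and 2.47 ± 0.434 RPKM, differed from PBS by -1.18 in CpG-scrODN (limma adjusted p = 0.00408) and by -0.80 in CpG-STAT3dODN (limma adjusted p = 0.0760). Smyd2, a lysine methyltransferase that acts on p53, was the called regulator. It stood at 1.73 ± 0.584, 0.452 ± 0.0308 and 0.846 ± 0.520 RPKM, a difference of -0.89 in CpG-scrODN against PBS (limma adjusted p = 0.0323).

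Some of these calls lay near the threshold. For CpG-scrODN against PBS, the calls of Plk2, Casp1, Sesn3, Ephx1 and Trp53i11 held in all 12 fits that left out 1 library. Cdkn1a and Dram1 each lost the call in 9 of 12 such fits and Perp and Smyd2 each in 8 of 12, whereas the differences stayed of similar size. In the fits that lost the call they were 0.37 to 0.43 for Cdkn1a, -0.51 to -0.44 for Dram1, 0.81 to 1.03 for Perp and -0.90 to -0.78 for Smyd2. Cdkn1a kept it only without replicate 2 labelled PBS or without replicate 3 or 4 labelled CpG-STAT3dODN, and Dram1 only without replicate 2, 3 or 4 labelled CpG-STAT3dODN. Perp and Smyd2 kept it only without replicate 3 labelled PBS or without replicate 2, 3 or 4 labelled CpG-STAT3dODN. For CpG-STAT3dODN against PBS, Casp1 lost the call without replicate 1 or 2 labelled CpG-STAT3dODN (-1.21 to -1.07). Ephx1 lost it without replicate 1 labelled PBS or replicate 1, 2 or 3 labelled CpG-STAT3dODN (-1.62 to -1.42), and Plk2 and Sesn3 kept it in all 12. For CpG-scrODN against PBS, quantile normalization ended the calls of Dram1 (-0.31, limma adjusted p = 0.162) and Smyd2 (-0.68, limma adjusted p = 0.140). Median-of-ratios scaling also ended that of Dram1 (limma adjusted p = 0.0574), and testing without the filter on low values ended that of Perp (limma adjusted p = 0.0582). Leaving out the 2 libraries of low Fos ended those of Cdkn1a (limma adjusted p = 0.0644), Dram1 (0.0538) and Perp (0.0720). Without all 3 libraries numbered 4, Cdkn1a (limma adjusted p = 0.124), Dram1 (0.0826), Perp (0.116) and Smyd2 (0.0596) were not called. Fits to the 2 groups alone ended the calls of Cdkn1a (limma adjusted p = 0.0777) and Perp (0.0836). For CpG-STAT3dODN against PBS such fits ended those of Casp1, Ephx1 and Sesn3 (limma adjusted p = 0.0978, 0.130 and 0.0690).

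The genes that fell share their direction with the B-cell and T-cell markers, and with most called genes. Of the genes called, 440 of 452 were lower in CpG-scrODN against PBS and 199 of 202 in CpG-STAT3dODN against PBS. All 7 B-cell markers and all 3 tested T-cell markers were called lower in CpG-scrODN against PBS, and 6 of 7 and 3 of 3 in CpG-STAT3dODN against PBS. Cd3g, a tested T-cell marker, reached 1 RPKM only in libraries labelled PBS, which alone took it past the filter. Cd79a, a signalling subunit of the B-cell receptor, was 45.0 to 187 RPKM labelled PBS, 2.35 to 7.80 under the label CpG-scrODN and 7.27 to 30.4 under CpG-STAT3dODN. Summed T-cell markers were 14.2 to 52.4, 1.82 to 3.67 and 2.09 to 4.43 RPKM. Of the 7 markers of leukaemic progenitors, Mpo, Prtn3 and Ctsg were called lower in CpG-scrODN against PBS. The other 4 were not called, with differences of 0.75 for Kit, 1.23 for Cd34, 0.03 for Myb and -0.54 for Flt3. In the same comparison, all 5 mature neutrophil markers, 4 of 5 macrophage markers and 4 of 5 erythroid markers lay below PBS, and none was called. The part of lymphocytes or other cells in the lower pathway genes was not tested.

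**Figure D5:**
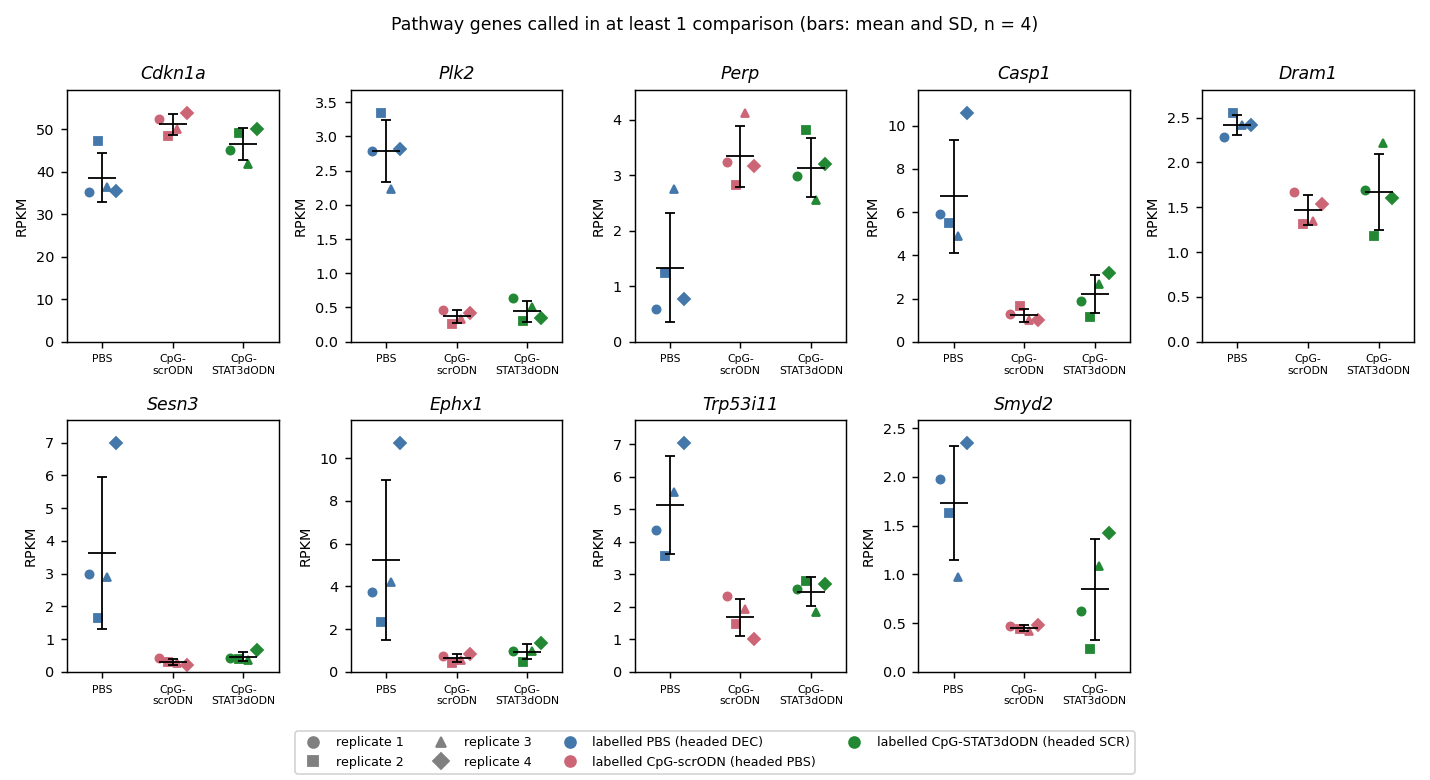
The 9 called pathway genes outside the 10 members, RPKM in each library by labelled group with group mean and SD (n = 4). Cdkn1a and Perp are higher in the CpG-scrODN-labelled libraries than in the PBS-labelled ones, and the other 7 are lower.

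Some relations among the members moved with the 2 libraries of low Fos and others did not. Trp53 and Phlda3 had a Pearson's r of 0.07 over 12 libraries and of 0.89 over the 10 left without them, and Trp53 and Sesn2 one of 0.01 and 0.79. Mdm2 and Mdm4 went from -0.68 to 0.08. Trp53inp1 and Gadd45a stood at 0.63 with all 12 and 0.61 without the 2, and Sesn2 and Gadd45a at 0.65 and 0.60. These values describe libraries that share groups and cell makeup. The tested genes whose log2 levels ran closest to Trp53 over the 12 libraries were Cnot3 (Pearson's r 0.96), Ddx39b (0.95) and Acaa1a (0.95). Those closest to Ccng1 were Nat9 (0.96), D630023F18Rik (0.96) and Pgm1 (0.95). The 3 genes closest to Ccng1 were chosen as the highest of all tested genes, and no other member was among them. Zmat3 with Ccng1 stood at 0.94 over 12 libraries and 0.88 without the 2 of low Fos, and Mdm4 with Ccng1 at 0.86 and 0.83.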

How the data were processed

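The authors deposited RPKM values, reads scaled to transcript length and mapped reads, per the file headers. The submitters' processing notes list TopHat 1.3.1, Partek 6.12.0713 and mm10 with no role for either tool. For annotation and filters, nothing is given in the sources used here. Sequencing reads were not analysed. RPKM is relative to all RNA of a library, so other cells in the spleen shift it.

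Groups came from the sample labels. The filter was RPKM of 1 or more in 4 or more of 12 libraries, which 10886 genes passed. One limma 3.58.1 model in R 4.3.3, with an intensity trend, held the 3 groups on log2(RPKM + 1), which understates changes of low genes. Calls were two-sided, at a p under 0.05 after Benjamini-Hochberg adjustment over all tested genes, and intervals are 95%. The model was tested on simulated data. Low RPKM values of genes with 1 transcript were whole reads, within 0.05 of a read, in 61.8% to 67.5% of cases, too few to recover reads, so no count test was run. No 2 libraries were identical.

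The members and lists were chosen with earlier results of these data known. Genes named were all members, every called gene of the 4 pathway lists, the 3 genes closest to Trp53 and to Ccng1 by Pearson's r, and Kit, Fos and Cd79a. Other genes named were markers of a list, singled out afterwards. Sequences and coordinates are from RefSeq, GRCm38.p6, the assembly that mm10 denotes. Alternatives were another pseudocount, filters, scalings, 2-group fits, a replicate block, library weights and libraries left out.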

Additional observations from a re-analysis of the deposited data

Results flagged for a closer look

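In 5 of 30 groups of 4 libraries, 1 library lay farther from the other 3 than Dixon's 95% criterion allows, and all 5 were replicate 4. Chance flags about 1 in 20 groups, and libraries are shared between these 5. Replicate 4 labelled CpG-STAT3dODN was high for Mdm2 at 27.0 RPKM and for Sesn2 at 19.2 RPKM. The same library was low for Ccng1 at 47.3 RPKM and for Zmat3 at 4.32 RPKM. Its gap to the nearest library was 0.920, 0.924, 0.849 and 0.866 of the group's range, in that order. Replicate 4 labelled CpG-scrODN was low for Sesn2 at 5.67 RPKM, with a gap of 0.850 of the range. The part of the cell makeup or RNA state of these libraries in the values was not tested.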

How the results depend on the processing

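No member difference that was called under any alternative had the opposite sign of the main value. Over 27 member differences and 22 alternatives, 16 of 594 values were called and 36 changed sign, none of those called. The 452, 202 and 0 genes called for CpG-scrODN against PBS, CpG-STAT3dODN against PBS and CpG-STAT3dODN against CpG-scrODN became 163, 76 and 0 with a floor of 5 RPKM. Fits to 2 groups alone gave 78 for the second comparison and 1 for the third, and library quality weights gave 1812, 1248 and 607, from a weight estimate that stopped before its tolerance. Without the 2 libraries of low Fos the first and second counts were 686 and 337, and without all 3 libraries numbered 4, chosen after seeing the data, 665 and 392. Leaving out 1 library gave 279 to 560 and 121 to 218. Quantile normalization gave 393 for the first comparison, 75 of them higher, beside 12 of 452.

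Of members and pathway genes together, 9, 4 and 0 were called. This became 0 and 0 with the floor of 5 RPKM, under which 1 of the 9 called pathway genes, Cdkn1a, was still tested. It was 1 for the second comparison with 2 groups alone, and 29, 21 and 6 with quality weights. Without all 3 libraries numbered 4 it was 13 and 7, and leaving out 1 library gave 5 to 12 and 2 to 5. The 13 did not include Cdkn1a, Dram1, Perp or Smyd2, which lost the call. Quality weights called Mdm4, Ccng1, Trp53inp1, Zmat3 and Gadd45a for the first comparison and Mdm4, Ccng1 and Zmat3 for the second. The causes of the other changes were not tested. Replicate numbers did not pair the libraries throughout. Same-numbered libraries had correlated deviations above 0.1 in 5 of 12 pairs (-0.34 to 0.82), and 3 of 12 libraries correlated best with their own number. Libraries numbered 4 were above 0.1 in every pair. The values were 0.19 for PBS with CpG-scrODN, 0.82 for PBS with CpG-STAT3dODN and 0.15 for CpG-scrODN with CpG-STAT3dODN. The replicate block gave 523, 213 and 0 genes, 10 and 5 of them members or pathway genes. It called Ccng1 (0.41, limma adjusted p = 0.00990, and 0.40, limma adjusted p = 0.0218) and Zmat3 (0.46, limma adjusted p = 0.0232). For CpG-scrODN against PBS it ended the calls of Cdkn1a (limma adjusted p = 0.0538) and Dram1 (limma adjusted p = 0.0656). Eda2r lay under the filter on low values and was tested apart by permutation.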
